A study of Mus musculus with 6 samples.

Results

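Organic ion and drug transporters carry urate, metabolites, hormones, drugs and toxins across cell membranes. In the kidney they act mostly in the proximal tubule, where uptake carriers of the blood-facing membrane pass organic anions and cations into the cell and apical carriers release them into the urine or take them back. Here they were taken as every protein-coding gene of the deposited expression table whose symbol belongs to the Slc22a, Slco, Slc47a, Abcc or Abcb families, together with Abcg2. This gave 46 genes of 17550 in the table: 21 Slc22a, 8 Slco, 1 Slc47a, 8 Abcc and 7 Abcb genes and Abcg2.

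The kidneys came from KC-Tie2 mice, a model of psoriasis in which keratinocytes of the skin carry a transgene for the receptor Tie2, and from mice labelled Control. There were 3 poly(A)-selected bulk RNA libraries of saline-perfused kidney per genotype. The labels give the tissue and the genotype, and no promoter, allele, strain, sex, age, littermate status or batch for either genotype. Nothing in them shows that each library came from its own mouse, so the tests reflect only the variation among these libraries, which may be technical.

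The deposited normalized counts summed to 23647811, 24604088 and 25155944 in KC-Tie2 replicates 1 to 3 and to 25378411, 24288853 and 25495455 in Control replicates 1 to 3. From the spacing of low values, this corresponds to about 21300000 to 29500000 estimated counts in KC-Tie2 and 18800000 to 29400000 in Control libraries before scaling. Proximal tubule markers were abundant in all libraries (the endocytic receptor gene Lrp2 at 127971 to 156002 in KC-Tie2 and 157198 to 168263 in Control). Every library held transcripts of the Y-linked gene Ddx3y (668 to 935 in KC-Tie2 and 859 to 1006 in Control), with Xist at 25.6 to 241 in KC-Tie2 and 89.3 to 415 in Control libraries.

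The promoters of the called genes Slc22a29, which rose, and Slco1a6, which fell, are shown because both hold the same short promoter motif. The motif is CCAAT, the CCAAT box that is common in promoters, searched on both strands. RefSeq promoters (build GRCm38.p6, 250 bases before to 50 after the start) were found for 36 of the 46 genes. Of these, 14, or 38.9%, held the motif, against 41.1% of all 27025 genes with a promoter. The promoters of the called genes Slc22a12, Slc22a4, Slc22a5 and Slc22a18 did not hold it, and none was found for Slc47a1. The motif thus does not mark the called genes. The sequences run 5′ to 3′ on the gene's strand, with the motif or its reverse complement in capitals. They are Slc22a29 (chr19:8218851-8219150, minus strand) and Slco1a6 (chr6:142186100-142186399, minus strand).
Slc22a29: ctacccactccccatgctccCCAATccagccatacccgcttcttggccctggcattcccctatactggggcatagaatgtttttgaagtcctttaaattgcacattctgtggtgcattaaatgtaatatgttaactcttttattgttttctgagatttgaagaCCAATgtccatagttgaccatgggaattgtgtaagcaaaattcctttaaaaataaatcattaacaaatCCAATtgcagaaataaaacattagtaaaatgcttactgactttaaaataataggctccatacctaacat
Slco1a6: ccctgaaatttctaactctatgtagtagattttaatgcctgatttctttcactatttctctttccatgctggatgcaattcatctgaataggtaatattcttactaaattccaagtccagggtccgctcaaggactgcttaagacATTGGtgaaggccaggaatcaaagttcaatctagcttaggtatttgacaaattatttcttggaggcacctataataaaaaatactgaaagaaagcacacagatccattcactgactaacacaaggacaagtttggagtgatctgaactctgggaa

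Slc22a29 held 3 matches, and Slco1a6 held 1, on the opposite strand, at position -105 counted from the annotated start. The longer motif CAAAGTCCA of the factor HNF4A, searched the same way, was in 0 of the 36 genes and in 0.555% of all genes with a promoter. No match says only that these letters are not in these windows.

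Between the genotypes, 6 of the 46 transporter genes fell and 1 rose in KC-Tie2 kidneys. The genes that fell were the urate carrier Slc22a12, the cation exporter Slc47a1, the ergothioneine carrier Slc22a4, the carnitine carrier Slc22a5, Slc22a18 and Slco1a6, with log2 fold changes of -0.57 to -0.35, and Slc22a29 rose with one of 1.04. Genes were called at a limma Benjamini-Hochberg adjusted p under 0.05 over all 17539 genes tested, on the log2(normalized count + 1) scale, KC-Tie2 minus Control. All 46 transporters passed the limit on the mean that decided which genes were tested. The 7 called are 15.2% of them, beside 1.69% of all genes tested. By direction, the 6 that fell stand beside 0.838% of all genes tested that fell, and the 1 that rose beside 0.855%.

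Many of the other transporters were lower as well. Log2 fold changes were below 0 at 32 of the 46, with a median of -0.23 (-0.12 with the limit on the mean raised to 100), and at 49.7% of all genes tested, with a median of 0.0012. At an unadjusted limma p under 0.05, 20 were lower (43.5%, beside 7.77% of all genes tested) and 3 higher (6.52%, beside 7.57%). The 3 KC-Tie2 libraries lay entirely below the 3 Control libraries at 19 transporters (41.3%, beside 10% of all genes tested) and above them at 4 (8.7%, beside 9.96%). Together these are 23 of 46, beside 20.0% of all genes tested. In the authors' deposited table, 15 transporters were lower at an FDR under 0.05 (32.6%, beside 2.08% of all 17550 genes) and 2 higher (4.35%, beside 1.83%). In total these are 17 of 46, beside 3.91%. That table includes all 7 genes called by limma. Its headings name the compared group WT, where the labels say Control.

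The calls depended on the libraries used. The number of transporters called was 1, 0 and 9 without KC-Tie2 replicate 1, 2 and 3, and 0, 8 and 0 without Control replicate 1, 2 and 3. At an unadjusted p these fits had 20 to 23 transporters under 0.05, and they called 0.274% to 3.89% of all genes. At 24 of the 46 transporters, replicate 3 was closest to the Control mean among the KC-Tie2 libraries. At 23 transporters, replicate 2 was closest to the KC-Tie2 mean among the Control libraries.

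**Figure D1:**
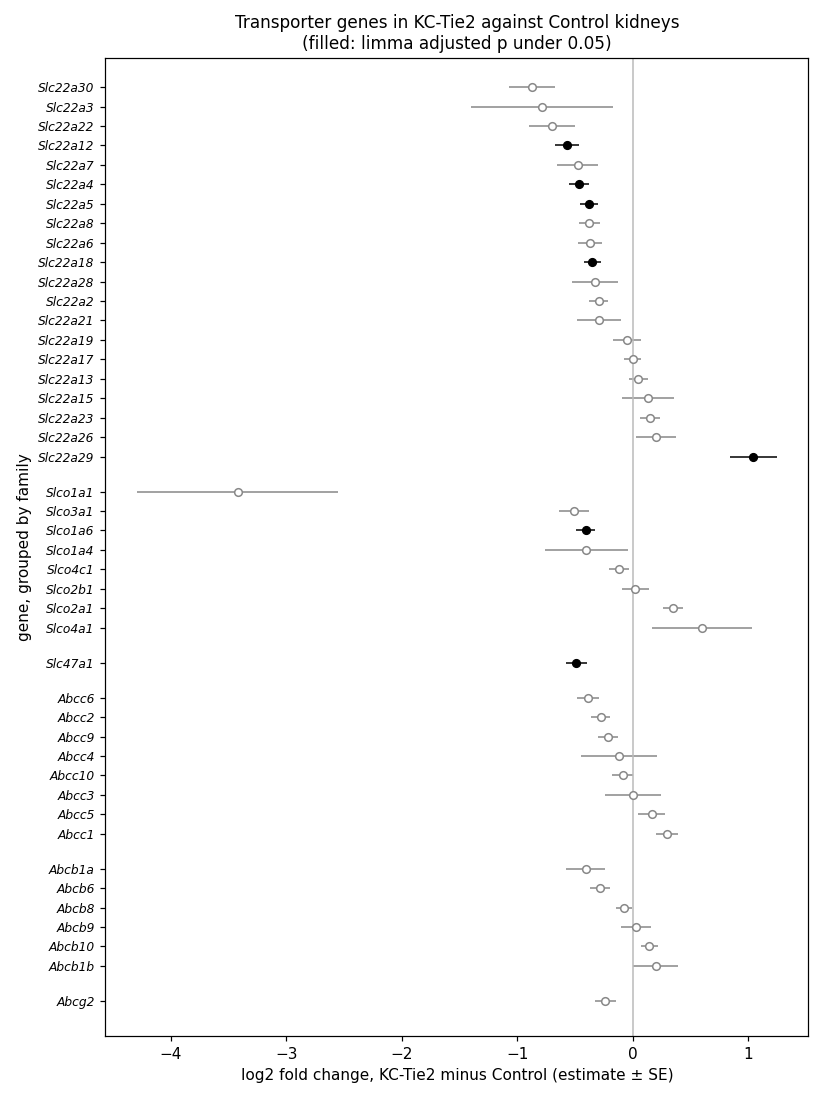
Log2 fold change, KC-Tie2 minus Control, of 44 of the 46 transporter genes by family, as estimate ± SE from 3 libraries per genotype. Filled points are the 7 genes called at an adjusted p under 0.05. Slc22a29 lies at 1.04, the other 6 called genes between -0.57 and -0.35, and Slco1a1 at -3.42 with the widest error.

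The uptake carriers of organic anions were lower, without passing the adjusted threshold. Slc22a6 encodes OAT1, which exchanges organic anions from the blood for dicarboxylates. It had 11675, 11908 and 13872 normalized counts in KC-Tie2 replicates 1 to 3, against 15285, 14456 and 18863 in Control replicates 1 to 3. All 3 KC-Tie2 libraries were below all 3 Control libraries, and replicate 3 was the highest of each genotype (log2 fold change -0.37 ± 0.11, limma adjusted p = 0.119). Its close neighbour Slc22a8 encodes OAT3, a carrier with the same membrane position and overlapping substrates. Slc22a8 had 6592, 7889 and 6383 in KC-Tie2 libraries, against 9366, 9233 and 8385 in Control libraries. The groups again did not overlap, here with replicate 3 the lowest of each genotype (log2 fold change -0.38 ± 0.09, limma adjusted p = 0.0649). In the authors' deposited table both genes were called, with FDRs of 0.018 for Slc22a6 and 0.00537 for Slc22a8.

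Slc22a7 encodes OAT2, another organic anion carrier. It had 1795, 2039 and 2537 in KC-Tie2 libraries, against 2579, 2656 and 3654 in Control libraries. KC-Tie2 replicate 3 came close to the lowest Control library without reaching it (log2 fold change -0.48 ± 0.18, limma adjusted p = 0.282). Slc22a22, which takes up prostaglandins in the mouse kidney, had 689, 848 and 1037 in KC-Tie2 and 1506, 1094 and 1590 in Control libraries. Control replicate 2 was the Control library nearest to the KC-Tie2 values (log2 fold change -0.70 ± 0.20, limma adjusted p = 0.175).

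Of the apical urate and anion carriers, Slc22a12 fell, and Slc22a13 and Slc22a19 were not called. Slc22a12 encodes URAT1, which takes urate back from the tubular fluid, and it lies on chromosome 19 (build mm39, 6585875 to 6593062). It had 17021, 16786 and 21246 in KC-Tie2 libraries, against 24959, 26642 and 29646 in Control libraries. The highest KC-Tie2 library, replicate 3, stayed below the lowest Control library, and Slc22a12 fell 1.48-fold (log2 fold change -0.57 ± 0.10, limma adjusted p = 0.0228). Slc22a13 encodes OAT10, a urate and nicotinate carrier of the same membrane. It had 2143, 2443 and 2367 in KC-Tie2 and 2197, 2046 and 2492 in Control libraries, so the groups overlapped. The log2 fold change of Slc22a13 was 0.05, with a 95% interval of -0.13 to 0.23. Of its transcript's 50-base windows, 36% also occur in the pseudogene Slc22a13b-ps. Slc22a19 encodes OAT5, an apical anion carrier of rodents, and had 1362, 1856 and 1882 in KC-Tie2 and 1790, 1610 and 1833 in Control libraries. These ranges overlapped too, with a log2 fold change of -0.05 (95% interval -0.33 to 0.23).

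A cluster of rodent organic anion genes on chromosome 19 held both directions. Slc22a29 (8137529 to 8196264, mm39) had 173, 296 and 209 in KC-Tie2 libraries, against 128, 96.6 and 97.3 in Control libraries. All KC-Tie2 libraries were above all Control libraries, and Slc22a29 rose 2.06-fold (log2 fold change 1.04 ± 0.20, limma adjusted p = 0.0297). The next member along the chromosome, Slc22a30 (8312735 to 8382475), had 1580, 1921 and 2339 in KC-Tie2 and 3494, 2884 and 4318 in Control libraries. It lay lower in all KC-Tie2 libraries without passing the threshold (log2 fold change -0.87 ± 0.20, limma adjusted p = 0.117), while the authors' deposited table gives an FDR of 8.23e-07. Slc22a28 had 1880 to 2926 in KC-Tie2 and 2453 to 3452 in Control libraries, and Slc22a26 had 505 to 809 and 498 to 645. Both overlapped between the genotypes, with log2 fold changes of -0.33 and 0.20.

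These genes have close copies, so the share of reads counted for each is uncertain. In the GENCODE M21 transcripts, 53.3% of the 50-base windows of Slc22a28 occur also in Slc22a30, and 32% of those of Slc22a30 occur in Slc22a28. For Slc22a29, 30.5% of the windows occur in another gene, most of them in Slc22a27, which is not in the table analysed here. How the authors counted reads that match several genes is not stated in the sources used here.

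**Figure D2:**
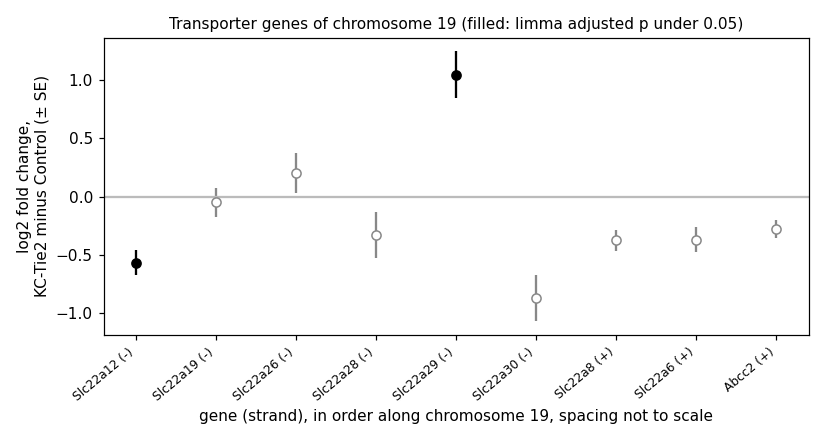
Log2 fold change, KC-Tie2 minus Control (estimate ± SE, 3 libraries per genotype), of the 9 transporter genes on chromosome 19 in chromosomal order, with strand. Slc22a29 at 1.04 stands between Slc22a28 at -0.33 and Slc22a30 at -0.87, and the plus-strand neighbours Slc22a8 and Slc22a6 lie at -0.38 and -0.37.

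Of the cation carriers, the apical exporter Slc47a1 fell, and Slc22a2 and Slc22a3 were not called. Slc47a1 encodes MATE1, which exchanges organic cations for protons at the apical membrane (chromosome 11, 61234227 to 61269171). It had 7068, 7490 and 8643 in KC-Tie2 libraries, against 10764, 10038 and 11715 in Control libraries. No KC-Tie2 library reached the lowest Control library, and Slc47a1 fell 1.4-fold (log2 fold change -0.49 ± 0.09, limma adjusted p = 0.0234). Slc22a2 encodes OCT2, an uptake carrier of organic cations in the tubule. It had 3964, 4313 and 4436 in KC-Tie2 and 4996, 4900 and 5731 in Control libraries. It lay lower in all KC-Tie2 libraries (log2 fold change -0.30 ± 0.08, limma adjusted p = 0.0963, authors' deposited FDR 0.0282). Slc22a3, which encodes OCT3, was scarce, with 28.9, 5 and 9.98 in KC-Tie2 and 35.7, 19.8 and 12.2 in Control libraries. Its groups overlapped (limma adjusted p = 0.608).

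Of the carriers of carnitine and ergothioneine, Slc22a5 and Slc22a4 fell and Slc22a21 was not called. Slc22a5 encodes OCTN2, the sodium-dependent carnitine carrier (chromosome 11, 53755368 to 53782486). It had 3919, 4253 and 4721 in KC-Tie2 libraries, against 5729, 5496 and 5539 in Control libraries. The Control libraries lay close together and above all KC-Tie2 libraries, and Slc22a5 fell 1.3-fold (log2 fold change -0.38 ± 0.08, limma adjusted p = 0.0346). Its chromosomal neighbour Slc22a4 encodes OCTN1, which carries ergothioneine (chromosome 11, 53873949 to 53918916). Slc22a4 had 683, 739 and 802 in KC-Tie2 libraries, against 1021, 940 and 1114 in Control libraries. It fell 1.38-fold with no overlap between the genotypes (log2 fold change -0.47 ± 0.09, limma adjusted p = 0.0253). Slc22a21, a rodent carnitine carrier between them, had 81.4, 77.9 and 80.2 in KC-Tie2 and 80.9, 94.1 and 124 in Control libraries. Its groups overlapped (limma adjusted p = 0.524), and 23.8% of its transcript's windows occur also in Slc22a5.

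The remaining Slc22a genes are less well known as carriers. Slc22a18, a gene of an imprinted region of chromosome 7 (143027473 to 143053071), had 5655, 5686 and 6260 in KC-Tie2 libraries, against 7303, 7225 and 7950 in Control libraries. It fell 1.28-fold without overlap (log2 fold change -0.35 ± 0.07, limma adjusted p = 0.0391). Slc22a17, described as a receptor for lipocalin-2, varied little, with 585 to 610 in KC-Tie2 and 587 to 610 in Control libraries (95% interval of the log2 fold change -0.17 to 0.16). Slc22a23 had 3051 to 3483 in KC-Tie2 and 2634 to 3247 in Control libraries, and Slc22a15 had 113 to 197 and 108 to 168. Both overlapped and neither was called. Over the whole family, 4 of 21 genes fell and 1 rose, beside 0.838% and 0.855% of all genes tested. The family's median log2 fold change was -0.33.

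**Figure D3:**
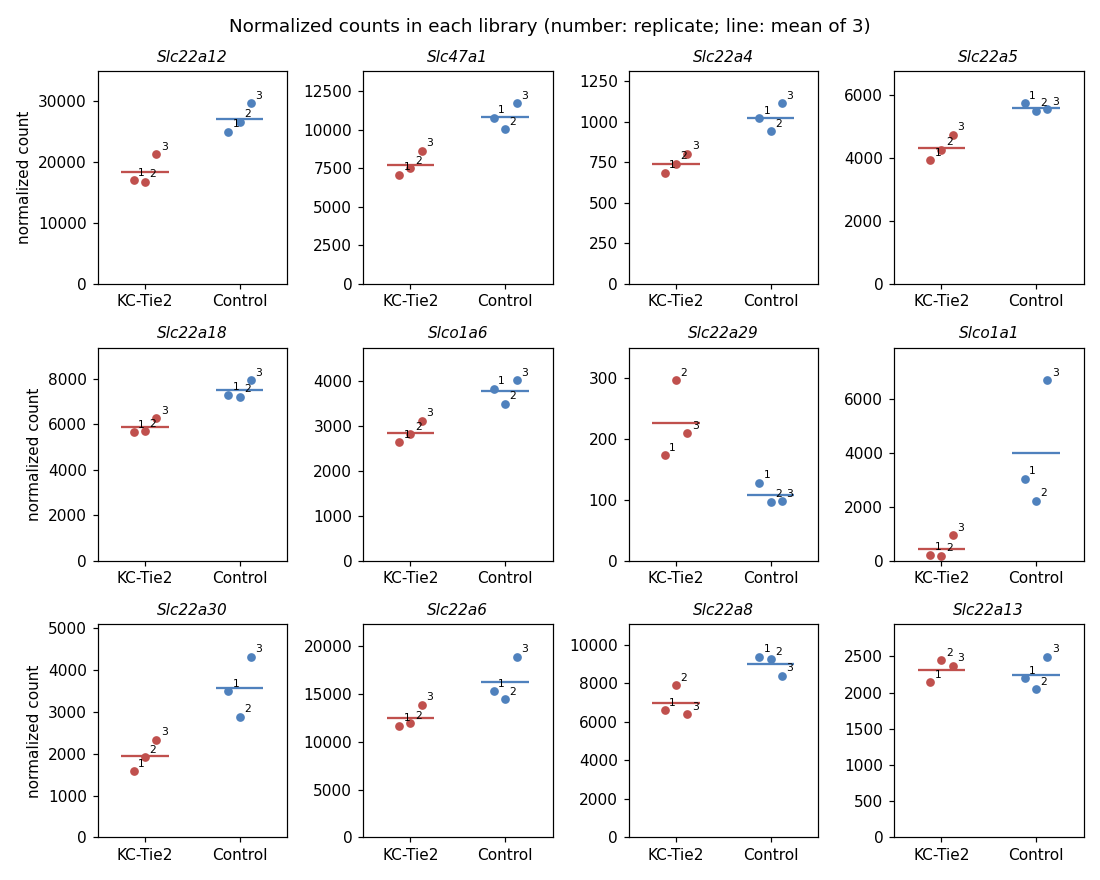
Normalized counts of 12 transporter genes in each library, KC-Tie2 in red and Control in blue, with the replicate number beside each point and a line at the mean of 3. The first 7 panels are the called genes, in which no KC-Tie2 library overlaps the Control libraries, while for Slc22a13 the libraries overlap, at 2143 to 2443 in KC-Tie2 and 2046 to 2492 in Control.

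The organic anion transporting polypeptides of the Slco family carry bile salts, steroid conjugates, thyroid hormones and prostaglandins. Slco1a1 showed the lowest log2 fold change of the 46 transporters. It had 219, 178 and 949 in KC-Tie2 libraries, against 3042, 2236 and 6723 in Control libraries. Every KC-Tie2 library was below every Control library, but replicate 3 was far above the others in both genotypes. The estimate was a 10.7-fold lower level in KC-Tie2 (log2 fold change -3.42 ± 0.87, 95% interval -5.79 to -1.05), and it did not pass the threshold (limma adjusted p = 0.195). The authors' deposited table gives a ratio of 0.112 and an FDR of 0.0117. Slco1a1 was called in 2 of the 16 alternative fits. These were the fit without the robust step of limma (adjusted p = 0.0289) and the replicate block (adjusted p = 0.014). It was called in 0 of the 6 fits that left out a library, and its adjusted p ranged from 0.014 to 0.471 over all fits run.

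Slco1a1 is known to be induced by androgens in the mouse kidney, so genes of sexually dimorphic kidney expression are given beside it. The list of 17 holds genes of male-biased and of female-biased expression. It does not mark which are which, so the counts below show no direction of sex bias. Limma called 1 lower and 0 higher, beside 0.838% and 0.855% of all genes tested. Log2 fold changes were below 0 at 12, beside 49.7% of all genes tested, and above 0 at 5. At an unadjusted p under 0.05, 10 were lower and 0 higher, and 8 were lower in the authors' deposited table. The gene that fell was Acsm2 (log2 fold change -0.58 ± 0.12, limma adjusted p = 0.0435). Kap, the kidney androgen-regulated protein gene, had 74582, 79946 and 119085 in KC-Tie2 and 185414, 139791 and 210491 in Control libraries (limma adjusted p = 0.107), with replicate 3 the highest of each genotype as for Slco1a1. Cyp4a12a had the lowest log2 fold change of the list (-3.66 ± 0.53, limma adjusted p = 0.0719). It had 141, 92.8 and 276 in KC-Tie2 and 2496, 1273 and 2360 in Control libraries. Cyp4a14 had the highest (1.88 ± 0.91, limma adjusted p = 0.446), with 3426, 3562 and 5688 in KC-Tie2 and 2541, 1691 and 323 in Control libraries. The prolactin receptor gene Prlr overlapped, with 1668, 2047 and 1091 in KC-Tie2 and 960, 1259 and 464 in Control libraries (log2 fold change 0.91 ± 0.49, limma adjusted p = 0.489). The part of these genes' regulation in the transporter differences was not tested.

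Slco1a6, a renal member of the same subfamily (chromosome 6, 142031487 to 142154247), had 2632, 2814 and 3112 in KC-Tie2 libraries, against 3827, 3493 and 4022 in Control libraries. The groups did not overlap and Slco1a6 fell 1.33-fold (log2 fold change -0.41 ± 0.08, limma adjusted p = 0.0315). Slco3a1, a carrier of prostaglandins and thyroid hormone, had 3319, 3224 and 3979 in KC-Tie2 and 4922, 4213 and 5931 in Control libraries. All KC-Tie2 libraries were lower (log2 fold change -0.51 ± 0.13, limma adjusted p = 0.104), and the authors' deposited FDR was 0.00156. Slco2a1, the prostaglandin transporter gene, lay in the opposite direction. It had 1360, 1555 and 1292 in KC-Tie2 libraries, against 1152, 1003 and 1151 in Control libraries. All KC-Tie2 libraries were higher (log2 fold change 0.35 ± 0.09, limma adjusted p = 0.0758, authors' deposited FDR 0.0328).

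The other Slco genes were not called. Slco4c1, a carrier of digoxin, thyroid hormone and uraemic toxins, had 704, 846 and 886 in KC-Tie2 and 864, 889 and 885 in Control libraries. KC-Tie2 replicates 1 and 2 lay below the Control range and replicate 3 within it (log2 fold change -0.12 ± 0.09, limma adjusted p = 0.583). Slco4a1 had 1075, 523 and 498 in KC-Tie2 and 533, 520 and 290 in Control libraries, so its log2 fold change of 0.60 ± 0.43 came with 1 high KC-Tie2 and 1 low Control library. Slco2b1 had 589 to 829 in KC-Tie2 and 647 to 733 in Control libraries. The scarce Slco1a4 had 17.8 to 47.2 in KC-Tie2 and 38.9 to 52.8 in Control libraries. The family's median log2 fold change was -0.26. It was -0.06 without KC-Tie2 replicate 1, and -0.12 with the limit on the mean raised to 100.

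Among the ATP-driven exporters and their relatives, limma called 0 of 16 genes, beside 1.69% of all genes tested. At that share, 0 of 16 does not set these genes apart from all genes. At an unadjusted p under 0.05, 3 Abcc genes were lower and 1 higher, beside 7.77% and 7.57% of all genes tested. The authors' deposited table calls 1 of the 8 Abcc genes, Abcc2, beside 3.91% of all genes. Abcc2 encodes MRP2, the apical exporter of conjugated anions. It had 8958, 10573 and 10495 in KC-Tie2 libraries, against 11835, 12112 and 12380 in Control libraries. The Control libraries were tightly grouped above all KC-Tie2 libraries (log2 fold change -0.28 ± 0.08, limma adjusted p = 0.118, authors' deposited FDR 0.0334). Abcc4 encodes MRP4, an apical exporter of urate and cyclic nucleotides, and had 1793, 1297 and 1382 in KC-Tie2 and 1470, 2445 and 1150 in Control libraries. Its Control libraries spanned the KC-Tie2 range, and the 95% interval of the log2 fold change was -0.99 to 0.75.

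Abcc6, which limits soft tissue calcification, had 338, 314 and 317 in KC-Tie2 and 419, 399 and 451 in Control libraries. It was lower in every KC-Tie2 library (log2 fold change -0.39 ± 0.10, limma adjusted p = 0.0719). Abcc9, the regulatory subunit of a vascular potassium channel, had 745, 620 and 733 in KC-Tie2 and 836, 799 and 794 in Control libraries (limma adjusted p = 0.253). Abcc1, an exporter of glutathione conjugates on the blood side, was the 1 gene of the family that was higher at an unadjusted p under 0.05. It had 1205, 1019 and 1080 in KC-Tie2 and 784, 971 and 935 in Control libraries, without overlap (log2 fold change 0.30 ± 0.09, limma adjusted p = 0.15). Abcc3, Abcc5 and Abcc10 overlapped between the genotypes, with log2 fold changes of 0.00, 0.16 and -0.09. The Abcc family's median was -0.105. It turned to 0.03 without Control replicate 2, and was -0.22 without Control replicate 3, -0.17 without KC-Tie2 replicate 1 and -0.03 without KC-Tie2 replicate 3.

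Of the 7 Abcb genes, 2 were lower and 0 higher at an unadjusted p under 0.05, beside 7.77% and 7.57% of all genes tested. Limma called 0 of them, beside 1.69%, and the authors' deposited table calls 0, beside 3.91%. Abcb1a and Abcb1b encode the paralogs of P-glycoprotein, the efflux pump for many drugs. Abcb1a had 115, 127 and 92.3 in KC-Tie2 and 131, 157 and 154 in Control libraries (log2 fold change -0.41 ± 0.17, limma adjusted p = 0.265). Abcb1b had 186, 212 and 159 in KC-Tie2 and 206, 168 and 120 in Control libraries (log2 fold change 0.20 ± 0.19, limma adjusted p = 0.701, and -0.0098 without Control replicate 3). Abcb1a was lower in every KC-Tie2 library whereas Abcb1b overlapped, and 15.5% of the windows of Abcb1a occur in Abcb1b. Abcb6, a porphyrin transporter, had 684, 721 and 773 in KC-Tie2 and 808, 874 and 976 in Control libraries (limma adjusted p = 0.138). Of its windows, 90.3% occur in the overlapping gene model Gm29253, which is also in the table, so its count is uncertain. The mitochondrial transporters Abcb8 and Abcb10 had log2 fold changes of -0.07 and 0.14, and the lysosomal peptide transporter Abcb9 had 0.03.

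Abcg2 encodes BCRP, an apical exporter of urate and drugs. It had 5537, 6099 and 6922 in KC-Tie2 and 7568, 6759 and 7479 in Control libraries. KC-Tie2 replicate 3 passed Control replicate 2, so the groups overlapped (log2 fold change -0.24 ± 0.09, limma adjusted p = 0.222).

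Per kilobase of annotated exon, Slc22a12 was the most abundant transporter transcript, with a mean normalized count per kilobase of 8110 in KC-Tie2 and 12000 in Control kidneys. Slc22a18 followed with 3450 in KC-Tie2 and 4410 in Control kidneys, then Slc22a6 with 3130 and 4070 in the same order. Slc47a1 had 2290 in KC-Tie2 and 3200 in Control kidneys. At the low end lay Slc22a3, with 3.24 in KC-Tie2 and 5 in Control kidneys. Exon lengths were those of GENCODE M21, matched by gene ID, and need not be the isoforms used in these kidneys.

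**Figure D4:**
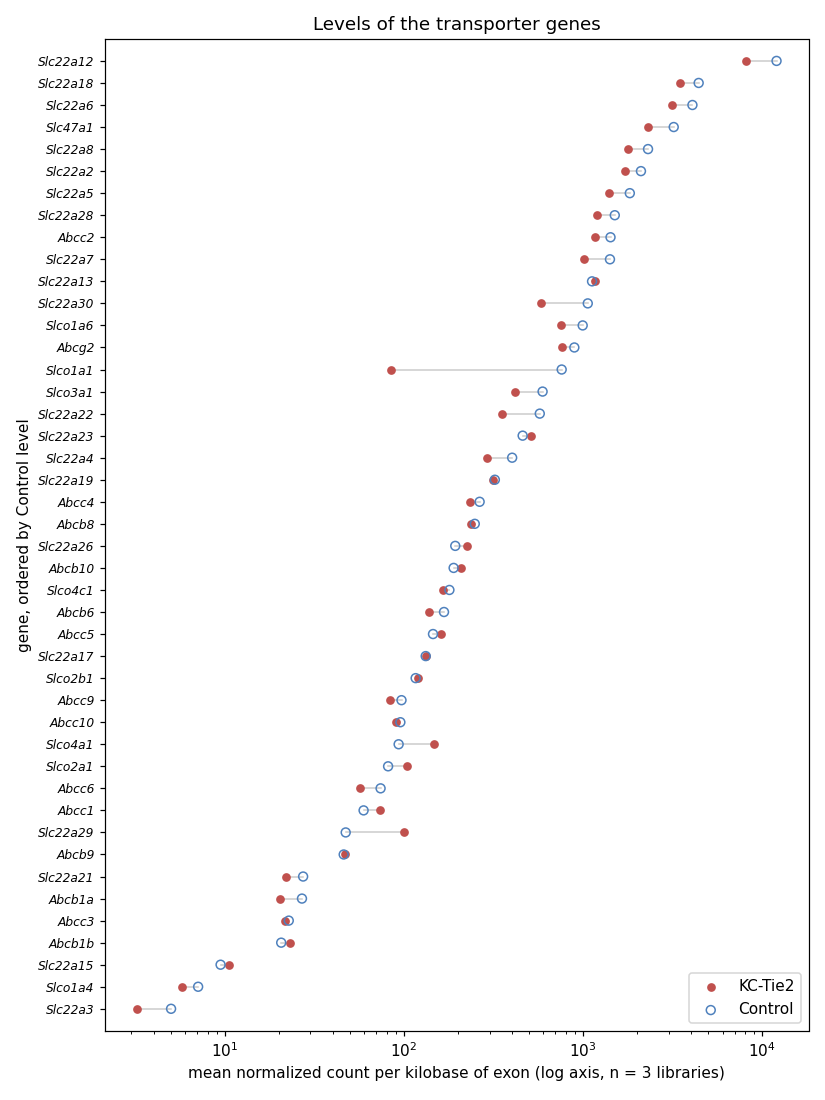
Mean normalized count per kilobase of exon (log axis, n = 3 libraries per genotype) of 44 of the 46 transporter genes, ordered by the Control level, KC-Tie2 in filled red and Control in open blue circles. Slc22a12 is highest in both genotypes, and the widest gap is that of Slco1a1, with 85 in KC-Tie2 and 758 in Control kidneys.

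The genes that share the work of these carriers were compared from fixed lists. Of 8 genes for exchange partners and the sodium gradient, 2 rose and none fell, with a median log2 fold change of 0.15. Of all genes tested, 0.855% rose and 0.838% fell. Slc13a1, the apical sodium-sulfate carrier, had 14092, 14385 and 9264 in KC-Tie2 and 6259, 5632 and 5530 in Control libraries, and rose (log2 fold change 1.09 ± 0.17, limma adjusted p = 0.0339). Oxgr1, a receptor for oxoglutarate, rose by less (log2 fold change 0.34 ± 0.07, limma adjusted p = 0.0464). Slc13a3 takes up the dicarboxylates that OAT1 and OAT3 exchange. It had 12235, 13476 and 14054 in KC-Tie2 and 15784, 16729 and 14252 in Control libraries (log2 fold change -0.23 ± 0.09, limma adjusted p = 0.208). Of 8 scaffold genes 1 rose, beside the same 0.855%, the moesin gene Msn (log2 fold change 0.47 ± 0.08, limma adjusted p = 0.0163). Pdzk1, which anchors apical carriers such as URAT1, overlapped at 14672 to 17353 in KC-Tie2 and 16291 to 18084 in Control libraries.

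None of 17 transcription factor genes was called by limma, beside 1.69% of all genes tested. At an unadjusted p under 0.05, 3 were lower, beside 7.77%. The authors' deposited table calls 1, Ppara, beside 3.91%. Ppara had the lowest log2 fold change of the 17, and its groups overlapped (-0.45 ± 0.20, limma adjusted p = 0.364). Log2 fold changes were below 0 at 14 of the 17, beside 49.7% of all genes tested. Hnf4a, a regulator of proximal tubule genes, had 16364, 18247 and 18755 in KC-Tie2 and 20069, 21324 and 19905 in Control libraries, without overlap (log2 fold change -0.20 ± 0.08, limma adjusted p = 0.245). The oestrogen receptor gene Esr1 had a log2 fold change of -0.19 ± 0.08 (limma adjusted p = 0.277). Of 19 other carriers of drugs, urate, nucleosides and peptides, limma called 0, and 4 were lower at an unadjusted p under 0.05. The authors' deposited table calls 1 of them. The shares of all genes are those just given. The nucleoside carrier Slc28a1 (log2 fold change -0.35 ± 0.10, limma adjusted p = 0.12) and the urate carrier Slc17a3 (-0.40 ± 0.12, limma adjusted p = 0.164) had the smallest p-values.

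Markers of the cell types of the kidney were measured beside the transporters. The 8 proximal tubule markers summed to 331000 to 387000 in KC-Tie2 and 398000 to 436000 in Control libraries, with a median log2 fold change of -0.13. Lrp2 and Slc34a1 had the highest means, 142805 and 93558 in KC-Tie2 and 163256 and 108963 in Control libraries, while Cubn and Slc5a2 overlapped. Limma called 0, beside 1.69% of all genes tested. At an unadjusted p under 0.05, 3 were lower and 1 higher, beside 7.77% and 7.57%. The authors' deposited table calls Slc27a2 lower and Slc5a12 higher. The fatty acid carrier gene Slc27a2 (log2 fold change -0.41 ± 0.10, limma adjusted p = 0.0684) and the lactate carrier gene Slc5a12 (0.28 ± 0.08, limma adjusted p = 0.123) had the smallest p-values. Slc7a13, a marker of the last proximal segment, had a log2 fold change of -1.12 ± 0.31 (limma adjusted p = 0.204). Aqp1, which proximal tubule cells share with other cells, overlapped at 19600 to 19935 in KC-Tie2 and 17897 to 19630 in Control libraries. The principal cell markers Aqp2 and Scnn1g, with log2 fold changes of 0.86 and 0.47, summed to 6950 to 9700 in KC-Tie2 and 3630 to 5760 in Control libraries. The podocyte marker Nphs1 had 1022 to 1337 in KC-Tie2 and 936 to 1008 in Control libraries (log2 fold change 0.34, limma adjusted p = 0.128). Markers of the thick ascending limb (Umod 0.17 and Slc12a1 0.34) summed to 94700 to 123000 in KC-Tie2 and 88700 to 94300 in Control libraries. Intercalated cell markers (Atp6v1g3 0.30, Slc26a4 0.24 and Slc4a1 0.18) summed to 3270 to 3870 in KC-Tie2 and 2930 to 3330 in Control libraries. The thick ascending limb sums were higher in all KC-Tie2 libraries, without overlap, whereas the intercalated cell sums overlapped. Summed markers also overlapped for the distal convoluted tubule (Slc12a3 -0.04, Pvalb 0.22) and the endothelium (Kdr -0.05, Emcn 0.04). So did the leukocyte marker Ptprc (0.01) and the sums for macrophages and hepatocytes (Serpina1a 0.62, Alb -0.62). Of all these markers, limma called 1, beside 1.69% of all genes tested. It was the macrophage gene C1qa, which rose (log2 fold change 0.94 ± 0.13, limma adjusted p = 0.00742). The other macrophage markers Csf1r, Cd68 and Adgre1 overlapped and were not called, with log2 fold changes of 0.06, 0.22 and 0.53. Sex chromosome genes, none of 5 called, had a median log2 fold change of -0.22, with Eif2s3y at -0.38 and Uty at -0.19. At an unadjusted p under 0.05, 2 of them were lower, beside 7.77% of all genes tested. In bulk tissue, fewer proximal tubule cells and less RNA per cell cannot be told apart, and the part of cell makeup in the transporter differences was not tested.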

How the data were processed

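RNA was measured by poly(A)-selected bulk sequencing in 3 KC-Tie2 and 3 Control mouse kidney libraries. The submitters' processing notes list Partek 12.5.0, STAR, DESeq2 and the mm39 build, without roles or settings. The authors deposited a signal per gene and library, read here as estimated counts scaled by 1 factor per library: 68.3% to 71.2% of values under 60 were whole multiples of a library-specific step (tolerance 0.01), so whole reads were not recovered. Deposited gene spans, an other-unit column, were not used as lengths. Listed stops were read as 1 base past the end. Per the file headers, the authors' second table gives a p-value and FDR, a ratio of KC-Tie2 to WT and a signed fold change score, of which p-value, FDR and ratio were read.

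Values were transformed as log2(value + 1), genes averaging under 10 across the 6 libraries were dropped, and the genotype effect came from limma 3.58.1 under R 4.3.3 (eBayes with trend and robust, two-sided, Benjamini-Hochberg over all 17539 genes). Values printed per library are unlogged, and errors of log2 fold changes are SE (n = 3 per genotype). The fit was tested on simulated data. Alternatives changed the pseudocount (0.5 or 5), the filter (none, or a minimum mean of 100) or the scaling (TMM or quantile), or used a replicate block, eBayes without robust, library weights, voom and fits without each library. Named genes were all members, the called members of each list (up to 4, or the 2 with the smallest p), and Xist, Ddx3y, Hnf4a, Pdzk1 and Slc13a3; some of these are not reported here. Kap, Cyp4a12a, Cyp4a14, Prlr, Slc7a13, Aqp1, Lrp2, Slc34a1, Cubn, Slc5a2, Slc4a1, Ppara, Csf1r, Cd68 and Adgre1 were named after their values were seen. Members, lists and tests were chosen with earlier results of these data known.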

Additional observations from a re-analysis of the deposited data

How the results depend on the processing

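The counts of transporter genes called (7), fallen (6) and risen (1) depended on the libraries used. With each library left out in turn, called transporters ranged from 0 to 9, fallen from 0 to 8 and risen from 0 to 2. Each of the 7 called genes kept its call in 2 of these 6 fits, and the highest adjusted p-values among them lay between 0.125 and 0.202. With the replicate block 13 transporters were called, 12 of them fallen, and with library weights 2 had risen. The pseudocounts, filters, TMM and quantile scaling, voom and eBayes without robust kept the same 7 genes called, with 2 more in the last. The median log2 fold change of the transporters was -0.27 to -0.12 over the 16 alternatives, against -0.23, and the value nearest 0 came with the minimum mean of 100. Same-numbered libraries deviated from their group means with correlations of 0.178, -0.096 and 0.017 over genes, and not every library correlated best with its own number. The highest correlation, 0.26, was between KC-Tie2 replicate 2 and Control replicate 3. With deviations from means of only 3 libraries, these values cannot decide whether the replicate numbers pair the libraries. In these libraries 1 estimated count is worth 0.8259 to 1.3532 normalized counts, so counting error weighs more on the scarcest transporters, Slc22a3 and Slco1a4. Its part in their spread was not tested.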
